A study of Mus musculus with 79 samples.

Results

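Peroxisomes shorten fatty acids that mitochondria handle poorly, such as very long-chain, branched and dicarboxylic acids. The 9 genes described here cover that work in quadriceps muscle: entry of fatty acyl-CoAs (Abcd2 and Abcd3), the chain-shortening cycle (Ehhadh, Hsd17b4 and Acaa1a), handling of branched and unsaturated chains (Amacr and Pecr), export of shortened chains (Crot) and growth of the organelle (Pex11a). They were chosen by name as peroxisomal fat oxidation genes and not ranked by their values, but earlier results of these data were known. All 9 were on the array with 1 probeset each, of 22335 named genes and 35556 probesets.

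Quadriceps RNA was measured on Affymetrix Mouse Gene 1.0 ST arrays in males of BXD strains, which are inbred lines that descend from a cross of C57BL/6J (called B6 here) with DBA/2J (called D2), and in both parents. The chow group (CD) held 42 arrays, 1 per strain, and the high fat group (HFD) held 37 arrays of strains that all had a CD array as well. CD was Harlan 2018 throughout life and HFD was Harlan 06414 from 8 weeks of age, and all mice were killed at 29 weeks after an overnight fast and perfusion. Each array was a pool of RNA from about 5 animals of a strain and diet, so individual variation within a strain cannot be read from these data. The labels placed 35 arrays in batch 1 and 44 in batch 2, and each batch held arrays of both diets. Values are expression scores on a log-type scale, set per array to mean 8.0 and SD 2.0. The log base was not stated, so differences are given in units of this score, and scores of different genes are not compared.

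The muscle identity of the arrays was clear from Ckm, Acta1, Mb, Myh4 and Myh1, whose mean score lay between 14.5 and 14.9 on every array. Adipocyte markers (10 genes, among them Adipoq, Lep and Fabp4) averaged between 9.37 and 10.8 on CD arrays (median 9.80) and between 9.46 and 11.1 on HFD arrays (median 10.3), and this average was higher in HFD in 30 of 37 strains. The slow fibre markers (7 genes) averaged between 8.54 and 11.2 in CD and between 8.32 and 10.98 in HFD, and 3 liver markers between 7.13 and 9.74 in CD and between 7.03 and 9.67 in HFD. BXD63 stood apart from the other strains. Across all probesets its HFD minus CD difference correlated at r = -0.28 with the mean difference of the other 36 strains, each of which correlated above 0 with the rest (r = 0.14 to 0.48). Its diet labels may therefore be exchanged, which the data here cannot settle, and results are also given without BXD63 where a call or value changed. Fewer cells of a type and less RNA per cell cannot be told apart in these pools.

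Many genes of fat oxidation in peroxisomes are known targets of PPARα, the fatty acid receptor that works as a heterodimer with RXR and binds direct repeats of AGGTCA-like sites. The promoter windows of Pex11a and Acaa1a are printed here because the first gene rose most with diet and the second kept the order of the strains between diets without a called diet difference. Ehhadh is added as the gene with the smallest diet difference. Each run holds the 250 bases before the RefSeq start, 5′ to 3′, build GRCm38.p6. Capitals mark GGGCGG (the GC box) and CCAAT on either strand. The windows are chr7:79743132-79743381 on the minus strand for Pex11a, chr9:119341044-119341293 on the plus strand for Acaa1a and chr16:21787835-21788084 on the minus strand for Ehhadh.
Pex11a: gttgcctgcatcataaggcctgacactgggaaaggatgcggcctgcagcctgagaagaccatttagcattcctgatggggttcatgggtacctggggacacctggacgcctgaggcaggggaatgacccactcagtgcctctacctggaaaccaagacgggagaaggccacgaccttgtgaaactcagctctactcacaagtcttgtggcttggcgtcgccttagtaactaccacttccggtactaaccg
Acaa1a: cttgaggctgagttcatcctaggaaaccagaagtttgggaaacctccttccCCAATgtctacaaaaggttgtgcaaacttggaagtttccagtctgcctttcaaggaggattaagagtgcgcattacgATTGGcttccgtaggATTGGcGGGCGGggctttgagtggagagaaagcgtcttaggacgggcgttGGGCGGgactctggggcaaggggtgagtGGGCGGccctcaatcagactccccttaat
Ehhadh: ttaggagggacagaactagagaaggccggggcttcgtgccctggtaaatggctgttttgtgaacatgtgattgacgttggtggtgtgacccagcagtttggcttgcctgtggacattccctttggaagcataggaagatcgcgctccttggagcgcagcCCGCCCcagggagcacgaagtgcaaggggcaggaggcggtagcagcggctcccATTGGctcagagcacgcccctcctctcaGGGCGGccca

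The Pex11a window holds neither motif, the Acaa1a window holds 3 GGGCGG and 3 CCAAT motifs, and the Ehhadh window holds 2 GGGCGG motifs and 1 CCAAT motif. Windows of 6 of the 9 genes were searched (Pecr, Abcd3, Crot, Pex11a, Acaa1a and Ehhadh), 7 in all, and none of Hsd17b4, Abcd2 and Amacr. The search of the 9 genes left out a chromosome that the search of all windows kept. A missing window therefore does not show that a gene lacks a RefSeq promoter. A GC box was present in 4 of these 7 and in 32.7% of all 32851 promoter windows, and CCAAT in 4 of 7 against 33.8%. The single site AGGTCA was present in 0 of 7 windows against 14% of all windows. Its direct repeat with 1 base between the copies, at most 2 mismatches allowed, was also present in 0 of 7 against 3.24%. Every motif was searched on both strands. These letters are only looked for in the 250 bases shown, so the counts describe the windows and not the binding of a factor.

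To examine how the diet affected peroxisomal gene expression, HFD and CD arrays were compared with limma across all probesets. Pex11a, Abcd3 and Hsd17b4 were higher in HFD, and none of the 9 genes was called lower. The diet moved a large part of the transcriptome: 38.1% of probesets were called (Benjamini-Hochberg adjusted p below 0.05), 18.9% higher and 19.3% lower in HFD. The balance of both directions depended on the scaling. With each array centred on its median, 8199 of 35556 probesets were called higher and 5758 lower. Against that background, 3 of 9 called is close to the share for the array as a whole, and this count was not tested. The median difference was 0.06 units over the 9 genes and -0.0007 over all probesets.

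**Figure D1:**
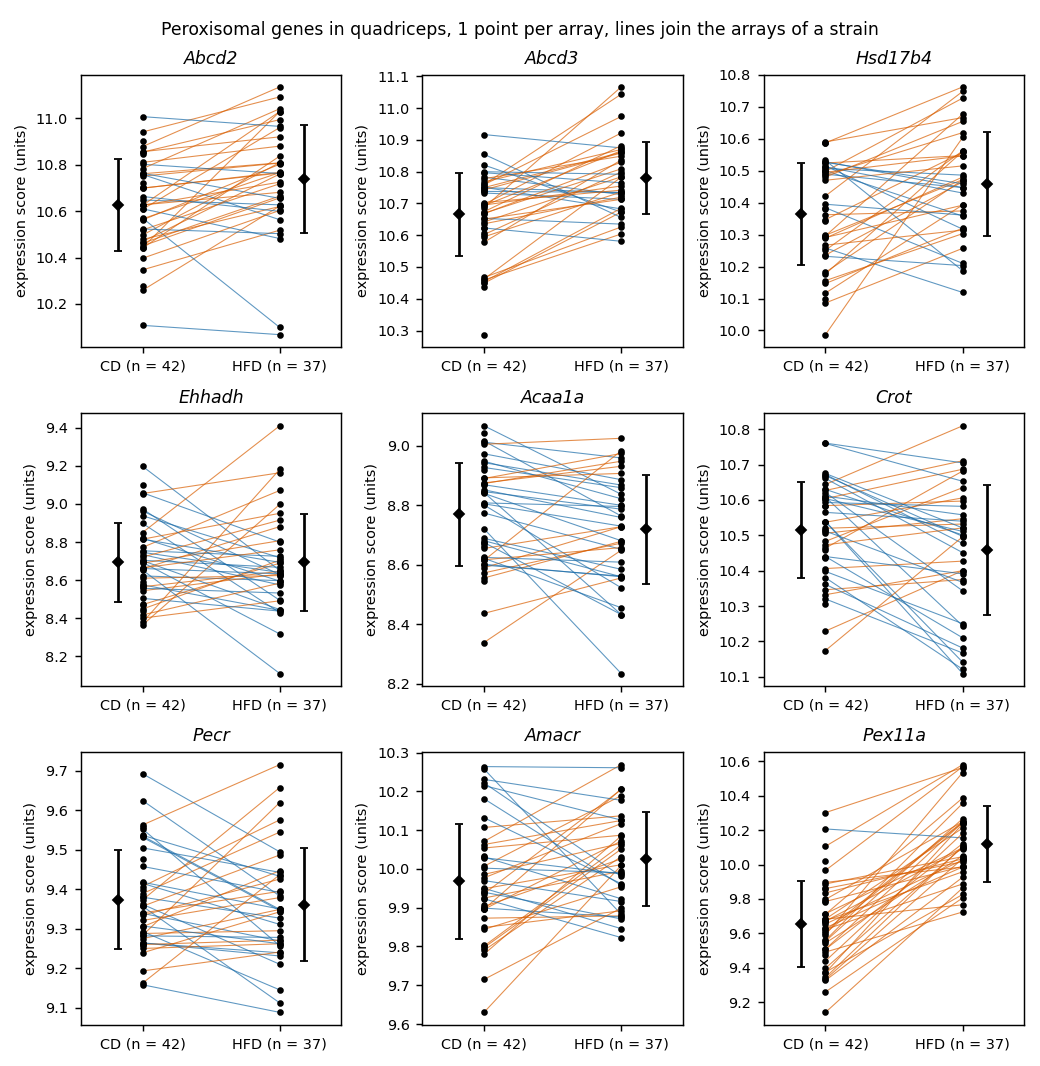
Expression score (units, a separate vertical axis per gene) of the 9 genes in CD (n = 42) and HFD (n = 37). Each point is 1 array, lines join both arrays of a strain (orange, higher in HFD; blue, lower in HFD), and diamonds with bars are the mean ± SD. Pex11a was higher in HFD in 36 of 37 strains, and the other panels mix rising and falling strains.

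Pex11a encodes a peroxisomal membrane protein that drives elongation and division of the organelle. It lay between 9.14 (BXD43) and 10.3 (BXD65) in CD, with a median of 9.64. In HFD it lay between 9.72 (BXD51) and 10.6 (BXD97), with a median of 10.1. The groups overlapped, yet all 37 HFD arrays were above the CD median and 6 were above the highest CD array. HFD arrays averaged 10.1 ± 0.22 (SD, n = 37) against 9.65 ± 0.25 (SD, n = 42) for CD, and the fitted difference was 0.47 units (SE 0.053, 95% interval 0.36 to 0.57, limma adjusted p 2.22e-11). If a unit is read as a doubling, this is a nominal 1.38-fold. Only 181 probesets, or 0.509% of the array, had a difference at least as large in either direction.

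Strains differed widely in the size of this rise. BXD99 rose by 0.944 units and BXD98 alone was lower in HFD, by a difference of -0.052 units, starting from the high CD score of 10.2. The difference was above 0 in 12 of 12 strains with both arrays in batch 1 (median 0.64), in 16 of 17 with both in batch 2 (median 0.42) and in 8 of 8 with arrays in different batches (median 0.57). BXD63 had a difference of 0.204 units as labelled, and Hsd17b4 (0.174 units) and Abcd3 (0.06 units) were also higher in its HFD array. If its labels were exchanged these signs would turn, and its Pex11a difference would be below that of every other strain. Without BXD63 the Pex11a difference was 0.47 units (limma adjusted p 2.51e-11). With the mean adipocyte marker score as a covariate the Pex11a difference was 0.41 units (limma adjusted p 7.50e-08). Plin1, an adipocyte lipid droplet gene, is the immediate protein-coding neighbour of Pex11a and rose by 0.37 units, but within a diet both genes were only weakly related (r = 0.22 over 42 CD arrays and 0.08 over 37 HFD arrays). These 2 values are descriptions with no test.

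Both transporters of the peroxisomal membrane were examined next. Abcd3, which encodes PMP70, an abundant ABC transporter for branched and dicarboxylic acyl-CoAs, lay between 10.3 and 10.9 in CD (median 10.7) and between 10.6 and 11.1 in HFD (median 10.8). Its mean rose from 10.67 ± 0.13 (SD, n = 42) to 10.78 ± 0.11 (SD, n = 37), and 25 of 37 strains were higher in HFD. The fitted rise was 0.11 units with an SE of 0.028 (limma adjusted p 0.000679). The largest rise was in BXD69 (0.38 units) and the largest fall in BXD73 (-0.199 units). Abcd3 was called under every alternative that was run, with adjusted p between 0.000539 and 0.0443.

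Abcd2, a transporter of very long-chain acyl-CoAs, had a difference of the same size but a wider spread between strains. It lay between 10.11 (BXD44) and 11.01 (B6) in CD and between 10.07 (BXD44) and 11.1 (BXD56) in HFD. The difference was 0.11 units (SE 0.048, 95% interval 0.016 to 0.21), and it did not pass the test (limma adjusted p 0.0586) although 27 of 37 strains had a higher score in HFD. In the 37 strains with both diets the difference was 0.12 units and was called, both without a block (limma adjusted p 0.0478) and with strain as a block (adjusted p 0.00379). Abcd2 was called in 3 of 13 alternatives. It was not called in strains with both arrays in 1 batch (limma adjusted p 0.210) or with the adipocyte covariate (adjusted p 0.162). Nor was it called after quantile normalization (limma adjusted p 0.106) or in batch 1 or batch 2 alone (adjusted p 0.488 and 0.117).

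Of the 3 enzymes of the cycle, only Hsd17b4 was called. Hsd17b4 encodes the D-bifunctional protein, which hydrates and dehydrogenates branched and very long-chain substrates. It lay between 9.99 (B6) and 10.6 (BXD84) in CD (median 10.4) and between 10.1 (BXD89) and 10.8 (BXD97) in HFD (median 10.5), and 8 HFD arrays were above the highest CD array. The difference was 0.10 units (SE 0.037, limma adjusted p 0.0313), with a higher score in 25 of 37 strains. B6 itself showed the largest rise, from 9.99 to 10.6. This call was close to the threshold. It was lost with the adipocyte marker score as a covariate (0.05 units, adjusted p 0.421), after quantile normalization (0.08 units, adjusted p 0.0667) and in each batch alone (0.13 units, adjusted p 0.0931, and 0.07 units, adjusted p 0.356).

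Ehhadh, which encodes the L-bifunctional protein active on dicarboxylic acids, had the smallest difference between diets of the 9 genes. It lay between 8.36 and 9.20 in CD (median 8.68) and between 8.11 and 9.41 in HFD (median 8.65). The difference was -0.001 units with a 95% interval of -0.10 to 0.10 (limma adjusted p 0.987). Single strains moved strongly in either direction, from -0.547 units in BXD56 to 0.804 units in BXD69, and 17 of 37 strains were higher in HFD. The SD of the strain differences was 0.306 units, the largest of the 9 genes.

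Acaa1a encodes the peroxisomal thiolase that releases the shortened acyl-CoA at the end of the cycle. It lay between 8.34 and 9.07 in CD and between 8.24 and 9.03 in HFD, with a difference of -0.05 units (95% interval -0.13 to 0.03, limma adjusted p 0.337). It was lower in HFD in 24 of 37 strains. Its near-identical paralog Acaa1b had a separate probeset that rose by 0.39 units in HFD (SE 0.054) in 35 of 37 strains. How far the probes of each gene also read the other was not tested.

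The remaining enzymes did not pass the test. Crot, the carnitine octanoyltransferase that prepares shortened chains for mitochondria, had a difference of -0.06 units (95% interval -0.13 to 0.02, limma adjusted p 0.225) and was lower in 22 of 37 strains. Pecr, the trans-2-enoyl-CoA reductase, had a difference of -0.01 units (95% interval -0.07 to 0.05, limma adjusted p 0.785). Amacr, the racemase that makes branched acyl-CoAs fit for oxidation, had a difference of 0.06 units (95% interval -0.005 to 0.12, limma adjusted p 0.144). The direction of Ehhadh and of Pecr turned when each array was centred on its median (0.02 and 0.005 units), which moved the median of all probesets to 0.016.

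**Figure D2:**
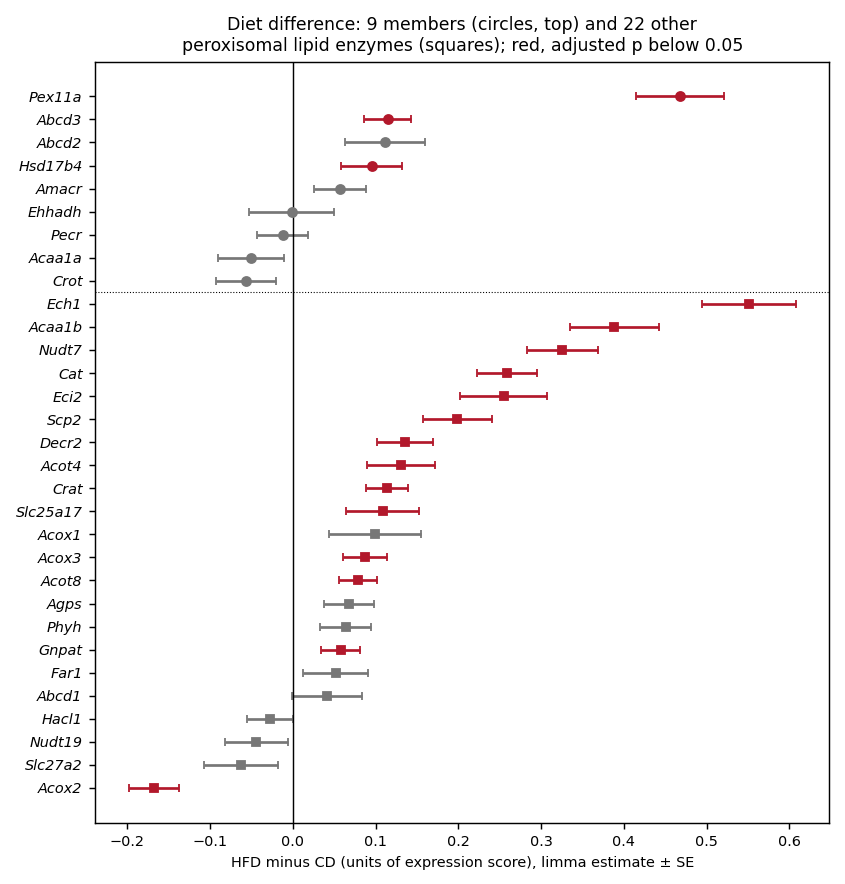
HFD minus CD (units of expression score, limma estimate ± SE, 79 arrays) for the 9 genes (circles, above the dotted line) and 22 other peroxisomal lipid enzymes (squares). Red marks an adjusted p below 0.05. Pex11a stands at 0.47 units, and Ech1, Acaa1b and Nudt7 lead the other enzymes at 0.55, 0.39 and 0.33 units.

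To place the 9 genes among their pathway, other genes of the peroxisome and of fat oxidation were counted in the same fit, where 18.9% of all probesets were called higher and 19.3% lower. These shares are the background for the diet counts of the lists that follow, which were chosen with earlier results of these data known. Of 22 other peroxisomal lipid enzymes, 13 were called higher and 1 lower in HFD (median difference 0.09 units). Ech1, a dienoyl-CoA isomerase, rose by 0.55 units (SE 0.057), higher in 36 of 37 strains. Acaa1b rose by 0.39 units and Nudt7, a CoA diphosphatase, by 0.33 units (SE 0.043). Acox2, an oxidase of bile acid intermediates and branched chains, fell by 0.17 units (SE 0.031).

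Of 15 other peroxins, the proteins that build the organelle and import its enzymes, 7 were called higher and 4 lower (array shares 18.9% and 19.3%), with a median of -0.002 units. Pex19 (0.16 units), Pex5 (0.15 units) and Pex7 (0.09 units) led the rises. Pex11g fell by 0.15 units and Pex14 by 0.12 units. The peroxin count was 2 in batch 1 alone and 5 in batch 2 alone, where calls over the whole array also fell, from 13551 of 35556 probesets to 4491 and 8691.

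Of 16 genes of mitochondrial fat oxidation, 13 were called higher and 1 lower (array shares 18.9% and 19.3%), with a median of 0.19 units. Acaa2, the mitochondrial thiolase, rose by 0.36 units (SE 0.066), Cpt2 by 0.36 units (SE 0.047) and Acadl by 0.33 units (SE 0.053), and Ucp3 fell by 0.24 units (SE 0.089). Of 7 regulators, Pparg rose by 0.26 units (SE 0.043) and Ppargc1b by 0.14 units (SE 0.041), and Ppara, Ppard, Ppargc1a, Rxra and Esrra were not called. Pparg is also an adipocyte marker here. Of the 10 adipocyte markers 6 were called higher and 1 lower, of 5 macrophage markers 3 higher, of 5 red blood cell markers 1 higher, of 5 muscle markers 1 higher, and of 7 slow fibre and 3 liver markers 0 were called (limma). The part of these cell types in the diet differences was tested only through the adipocyte covariate above.

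The BXD panel also allows a comparison between strains. With 1 array per strain and diet, each strain has its 2 diets as its only repeat, and the strain F test asks whether strains differ by more than what is left after strain, diet and batch. Of all probesets, 13.6% were called. Among the 9 genes, 4 were called: Abcd2 (F = 3.70, limma adjusted p 0.00138), Acaa1a (F = 3.19, adjusted p 0.00509), Pex11a (F = 2.84, adjusted p 0.0124) and Crot (F = 2.63, adjusted p 0.0213). The median F was 2.03 over the 9 genes and 1.33 over all probesets. Crot was not called when the strains were limited to those with both arrays in 1 batch (adjusted p 0.0639). Pecr, Amacr, Abcd3, Hsd17b4 and Ehhadh were not called, with adjusted p from 0.0885 to 0.432.

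**Figure D3:**
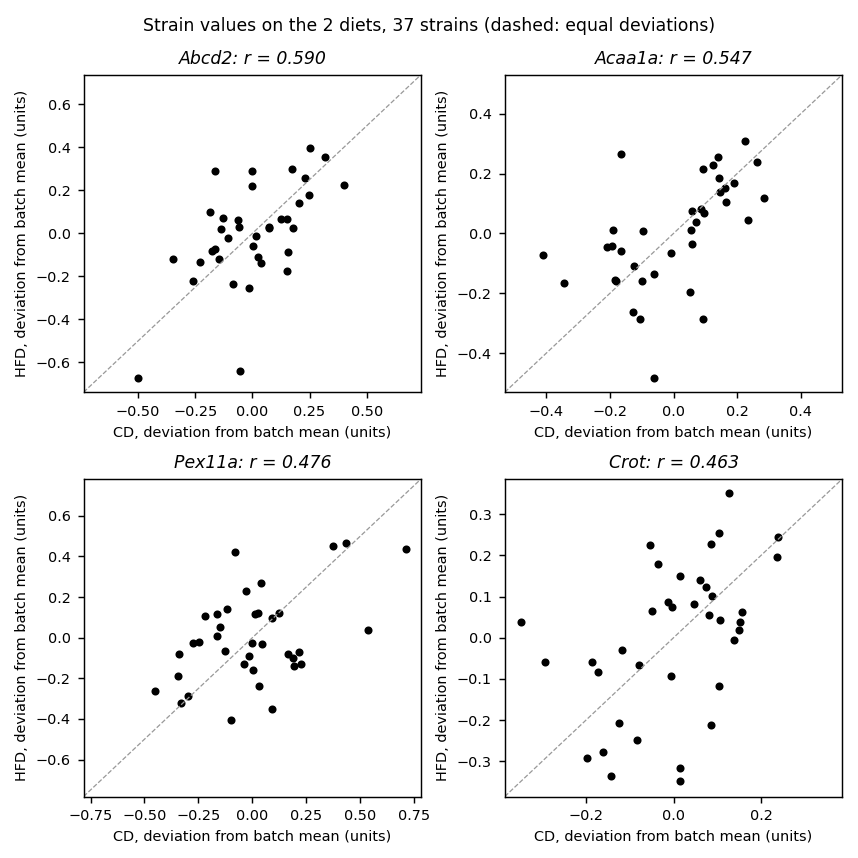
HFD against CD score of 37 strains for the 4 genes called between strains, each as the deviation from its batch mean within the diet (units). The dashed line marks equal deviations, and r is Pearson's. Points of Abcd2 and Acaa1a spread along the line (r = 0.590 and 0.547), and those of Pex11a and Crot more loosely (r = 0.476 and 0.463).

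Strains kept their place between diets to different degrees. Over 37 strains, after removal of batch means, Abcd2 in CD and HFD correlated at r = 0.59 (permutation p 0.00012) and rho = 0.52 (p 0.00107). Without B6 and BXD44, farthest from the CD median, r was 0.46 (p 0.00551). BXD44 had the lowest Abcd2 score on both diets, 10.11 and 10.07. Acaa1a gave r = 0.55 (permutation p 0.00041) and rho = 0.64 (p 2e-05), and r = 0.56 without its 2 farthest strains. It also held within each batch (r = 0.62 over 12 strains, p 0.0305, and 0.53 over 17 strains, p 0.0282, permutation tests).

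Crot gave r = 0.46 (permutation p 0.00346) and rho = 0.47 (p 0.00335), and r = 0.56 without its 2 farthest strains. Within batches Crot gave r = 0.64 over 12 strains and 0.33 over 17 strains (permutation p 0.0233 and 0.208). Pex11a gave r = 0.48 (permutation p 0.00296) but rho = 0.30 (p 0.0714), and r = 0.40 without BXD65 and BXD98 (p 0.016). Pecr (r = 0.38, rho = 0.43, permutation p 0.0195 and 0.008) kept a positive relation as well, and BXD89 had its lowest score on both diets, 9.16 and 9.09. Abcd3 gave r = 0.35 (permutation p 0.0328, rho = 0.32 with p 0.0562), which fell to 0.29 (p 0.0907) without its 2 farthest strains. Hsd17b4 (r = 0.29, rho = 0.28), Amacr (r = 0.27, rho = 0.25) and Ehhadh (r = 0.10, rho = 0.15) did not reach p 0.05 by permutation (p 0.0829, 0.108 and 0.536 for r). Within batches, over 12 strains of batch 1 and 17 of batch 2, r was 0.74 and 0.55 for Abcd2, 0.61 and 0.39 for Pex11a, 0.59 and 0.18 for Pecr and 0.57 and 0.42 for Abcd3. By permutation, p was below the threshold in both batches for Abcd2 (p 0.00471 and 0.0195) but in batch 1 alone for Pex11a (p 0.0312 and 0.123) and Pecr (p 0.0426 and 0.488), and in neither for Abcd3 (p 0.0532 and 0.094). Over the 8 strains with arrays in different batches r of Abcd2 was 0.08. Without BXD63 the r of Amacr was 0.19, and that of the other genes moved by less. The permutation p-values are unadjusted over these 9 relations. Over all probesets the median r was 0.14, and 4.34% of probesets had an r at least as high as Abcd2. The share was 5.77% for Acaa1a, 9.02% for Pex11a, 9.66% for Crot, 15.8% for Pecr and 18.8% for Abcd3. For Hsd17b4, Amacr and Ehhadh it was 26.2%, 29.4% and 56.2%.

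The range from the lowest to the highest strain rests on 2 arrays and is a description. In CD it ran from 0.535 units for Pecr to 1.16 units for Pex11a, and in HFD from 0.446 units for Amacr to 1.30 units for Ehhadh. The median over the 9 genes was 0.634 units in CD and 0.701 units in HFD. In B6 minus D2, 0 of 9 genes were called, against 1.26% of probesets, and 1 of 9 had an unadjusted p below 0.05 (limma). That gene was Abcd2, at 11.01 and 10.97 in B6 and 10.63 and 10.73 in D2 in CD and HFD (difference 0.31 units, SE 0.14, limma adjusted p 0.502). Each parent has 1 array per diet, which limits what this comparison can detect.

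**Figure D4:**
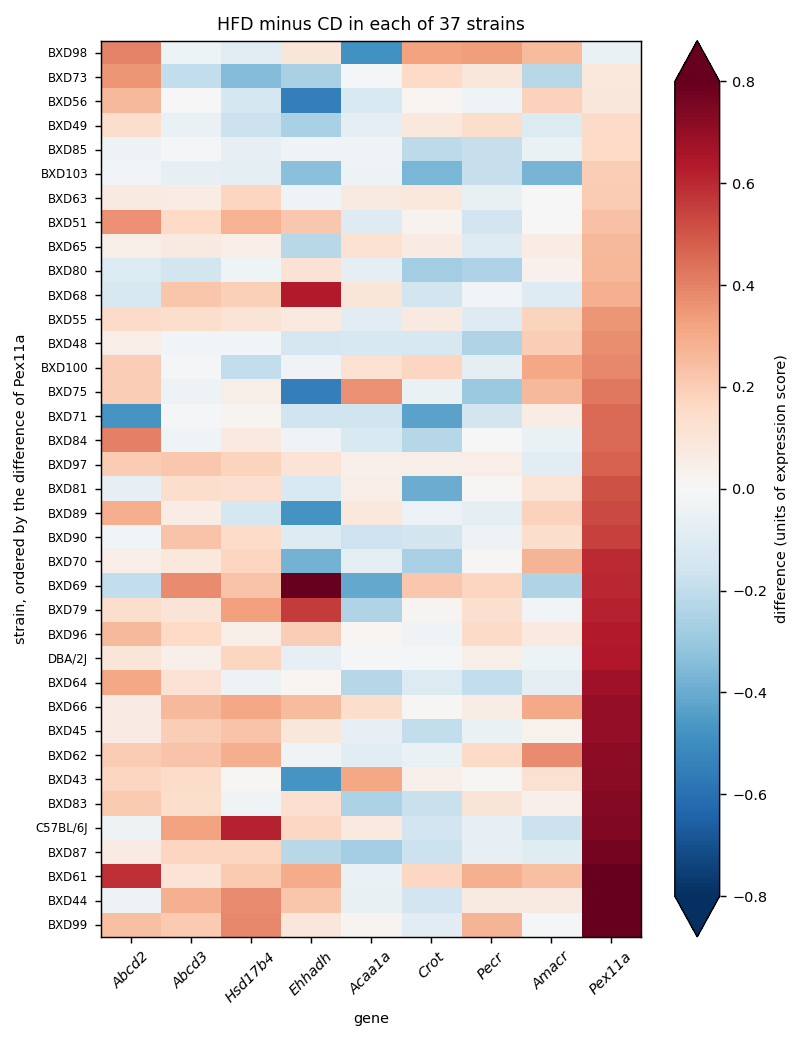
HFD minus CD (units of expression score, colour) of the 9 genes in each of 37 strains, ordered from the smallest to the largest Pex11a difference. The Pex11a column is above 0 in 36 strains, and the other columns hold both signs.

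Single strains gave different profiles of change. All 9 genes were higher in HFD in BXD66, only 1 of 9 in BXD85 and BXD103, and a median of 5 over the 37 strains. In BXD98, the only strain without a higher Pex11a score, Crot (0.322 units) and Pecr (0.337 units) showed their largest rises of any strain and Acaa1a its largest fall (-0.486 units). BXD69 had the largest rise of both Ehhadh (0.804 units) and Abcd3 (0.38 units). In BXD73 Abcd3 (-0.199 units) and Hsd17b4 (-0.345 units) had their largest falls, and in BXD71 Abcd2 (-0.471 units) and Crot (-0.43 units) did. The CD and HFD arrays of BXD69 and of BXD73 came from different batches, so diet and batch cannot be told apart in these strains. With 1 array per strain and diet these single-strain values have no error of their own.

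The genes that changed together were then examined over all 79 arrays, with diet and batch means removed. For each gene a limma fit with its score as covariate was run across all other probesets, and a pair was called if it passed in both directions. Of 36 pairs 8 were called, all with r above 0 in each diet. The share of probesets called as covarying was 27.8% for Ehhadh, 11% for Hsd17b4, 28% for Abcd3, 9.32% for Pex11a, 7.34% for Abcd2, 17.5% for Crot, 34.1% for Pecr, 0.127% for Acaa1a and 0.768% for Amacr. These shares depended on the scaling and the arrays. After quantile normalization the number of covarying probesets was 2065 instead of 9960 for Abcd3, 1374 instead of 3908 for Hsd17b4, 1092 instead of 6223 for Crot, 1799 instead of 3313 for Pex11a, 7147 instead of 9879 for Ehhadh and 4161 instead of 12125 for Pecr, but 604 instead of 273 for Amacr, and it was close to its former value for Abcd2 (2635 and 2608) and Acaa1a (46 and 45). With the muscle marker score as a covariate it was 359 for Crot and 6488 for Pecr, but 7000 for Hsd17b4, 5123 for Pex11a, 434 for Amacr and 69 for Acaa1a, and with the adipocyte marker score it was 6 for Acaa1a. Without BXD63 it was 89 instead of 273 for Amacr and 25 instead of 45 for Acaa1a. Arrays of the same strain are not independent in this fit, and the diets are given apart below.

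**Figure D5:**
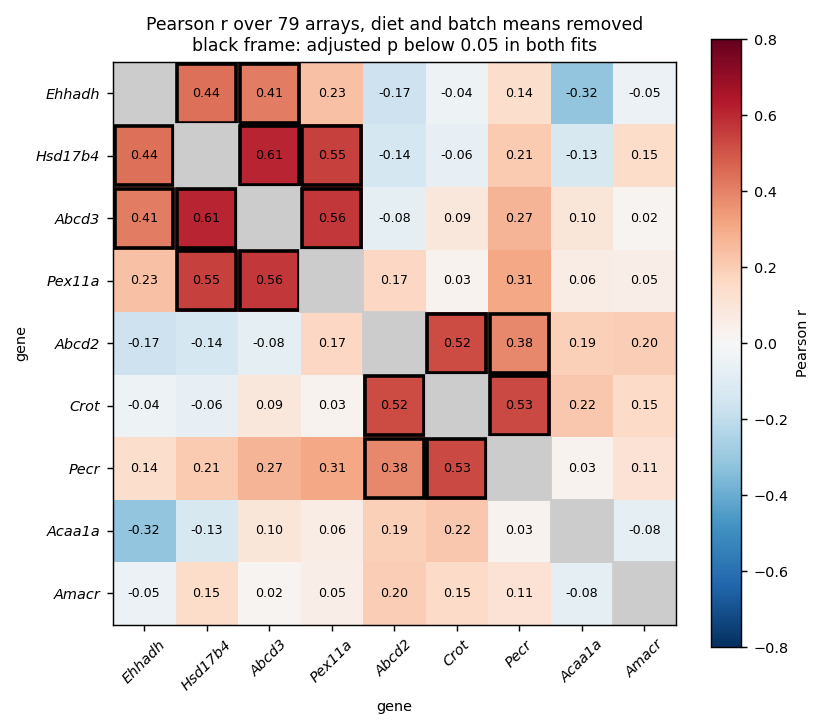
Pearson r (colour and printed value) between each pair of the 9 genes over 79 arrays after diet and batch means were removed. Black frames mark the 8 called pairs, which lie in a block of Ehhadh, Hsd17b4, Abcd3 and Pex11a (r = 0.41 to 0.61 for its 5 called pairs, but 0.23 for Ehhadh with Pex11a, not called) and a block of Abcd2, Crot and Pecr (r = 0.38 to 0.53).

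The called pairs fell into 2 blocks with no called pair between them in the fit over all arrays. Pecr came close to the first block, with Abcd3 (r = 0.27, larger adjusted p 0.0589) and Pex11a (r = 0.31, larger adjusted p 0.0618). In HFD alone its r was 0.54 with Abcd3, which was called, 0.44 with Pex11a and 0.40 with Ehhadh. There it was 0.58 with Crot, also called, and 0.36 with Abcd2. In CD alone its r was 0.05 with Abcd3, 0.20 with Pex11a and -0.17 with Ehhadh, against 0.46 with Crot and 0.41 with Abcd2. The first block held Hsd17b4, Abcd3, Pex11a and Ehhadh. Hsd17b4 and Abcd3 were the closest pair (r = 0.61, larger of both adjusted p 1.58e-05), followed by Abcd3 with Pex11a (r = 0.56, adjusted p 5.60e-05), Hsd17b4 with Pex11a (r = 0.55, adjusted p 7.55e-05), Ehhadh with Hsd17b4 (r = 0.44, adjusted p 0.00245) and Ehhadh with Abcd3 (r = 0.41, adjusted p 0.00336). Ehhadh with Pex11a was not called (r = 0.23, adjusted p 0.170). Hsd17b4 and Abcd3 kept r = 0.61 within each diet, with rho = 0.59 in CD and 0.60 in HFD (permutation p 7e-05 and 0.00012), and r = 0.59 and 0.58 without the 2 farthest arrays. Abcd3 and Pex11a gave r = 0.47 in CD and 0.71 in HFD, with rho = 0.44 and 0.70. In all, 72 such relations within diets were computed, and their p-values are unadjusted.

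Pairs were also compared within strains. With strain as a block, which leaves the difference between both diets of a strain, the 4 called pairs were Hsd17b4 with Abcd3 (r = 0.78), Abcd3 with Pex11a (r = 0.68), Hsd17b4 with Pex11a (r = 0.62) and Ehhadh with Abcd3 (r = 0.54). The other 4 pairs were not called. Abcd2 with Crot had r = 0.59, above that of Ehhadh with Abcd3. Below every called pair were Ehhadh with Hsd17b4 (r = 0.52), Crot with Pecr (r = 0.49) and Abcd2 with Pecr (r = 0.37). Over all probesets this fit called fewer for each of these 7 genes: 8539 for Ehhadh, 6298 for Pecr, 4278 for Abcd3, 497 for Hsd17b4, 330 for Crot, 160 for Pex11a and 35 for Abcd2.

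The second block held Abcd2, Crot and Pecr. Crot and Pecr had r = 0.53 (larger adjusted p 0.000203), Abcd2 and Crot r = 0.52 (adjusted p 0.000184) and Abcd2 and Pecr r = 0.38 (adjusted p 0.0146). Within diets r was 0.41 to 0.46 in CD and 0.36 to 0.58 in HFD. Abcd2 and Abcd3, the transporters, were not called as a pair (r = -0.08), nor was Abcd2 with either bifunctional protein (r = -0.17 for Ehhadh and -0.14 for Hsd17b4). Acaa1a and Amacr were in no called pair, and the lowest r of all pairs was between Ehhadh and Acaa1a (-0.32, adjusted p 0.224).

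The number of called pairs depended on the arrays used. It was 2 of 36 in CD alone (Hsd17b4 with Abcd3 and with Pex11a), 6 in HFD alone (5 of the 8, and Abcd3 with Pecr), 7 in batch 2 alone and 0 in batch 1 alone, where the 8 pairs had r from 0.10 to 0.55 and all stayed above 0. The number of covarying probesets on the whole array moved too. For Ehhadh it was 6 in CD alone, 5796 in HFD alone, 123 in batch 1 alone and 8563 in batch 2 alone, and for Pecr 4, 11242, 1872 and 7699. Abcd2 went the other way, with 748, 394, 852 and 623. Without BXD63 all 8 pairs were called. Marker levels moved with some genes. Across arrays the mean muscle marker score correlated with Crot (r = -0.59) and Pecr (r = -0.36), and the slow fibre markers with Abcd2 (r = -0.41) and Crot (r = -0.40). With the muscle marker score as a covariate 9 pairs were called, all 8 and Pex11a with Pecr. For the adipocyte score r ran from -0.33 (Acaa1a) to 0.28 (Hsd17b4), and for the liver markers from -0.29 (Pex11a) to -0.05 (Ehhadh). These correlations are descriptions over 79 arrays that share strains and normalization.

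The genes outside the list that followed each of the 9 most closely are given as a description. For Pex11a these were Decr1 (r = 0.79), the mitochondrial dienoyl-CoA reductase, Acaa2 (r = 0.74) and Ndufa4 (r = 0.70). For Abcd3 they were Peci (now Eci2, r = 0.65), a peroxisomal enoyl-CoA isomerase, Pdhx (r = 0.63) and Etfdh (r = 0.62). For Hsd17b4 they were Afg3l2 (r = 0.77), a mitochondrial protease subunit, Hsdl2 (r = 0.73) and Ephx2 (r = 0.73). For Ehhadh they were Pank1 (r = 0.71), a kinase of CoA synthesis, Pdp2 (r = 0.70) and Fam13a (r = 0.69). The mean score of the mitochondrial fat oxidation genes had r = 0.74 with Hsd17b4, 0.66 with Pex11a, 0.60 with Abcd3 and 0.47 with Ehhadh, but -0.35 with Abcd2, -0.33 with Crot and 0.01 with Pecr. The mean of the other peroxisomal lipid enzymes gave r = 0.66 with Hsd17b4, 0.64 with Pex11a, 0.49 with Abcd3 and 0.40 with Ehhadh, and -0.20 with Abcd2, -0.08 with Crot and 0.11 with Pecr. The mean of the peroxins gave r = 0.55 with Ehhadh, 0.55 with Abcd3, 0.43 with Hsd17b4 and 0.32 with Pex11a, and 0.53 with Pecr, 0.36 with Crot and 0.03 with Abcd2.

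Abcd2 was followed most closely by Xrcc5 (r = 0.78), Calm2 (r = 0.74) and Samd8 (r = 0.72), Crot by Tbc1d19 (r = 0.71), Pds5b (r = 0.66) and Ccdc43 (r = 0.64), and Pecr by Rictor (r = 0.70), Ssr4 (r = 0.67) and Pgap1 (r = 0.65). Amacr was followed by Flad1 (r = 0.68), Mrpl34 (r = 0.58) and 1300001I01Rik (r = 0.56). Acaa1a was followed by Trak1 (r = 0.62), Chia (r = 0.57) and Sec22c (r = 0.47). Trak1 and Sec22c lie on the same chromosome as Acaa1a, with 22 and 26 protein-coding genes between them. A chromosome was also shared by Afg3l2 with Hsd17b4 (106 genes between), Pgap1 with Pecr (103) and Etfdh with Abcd3 (526). Tbc1d19 and Pds5b share that of Crot (298 and 1204 genes between). The part of shared position in these correlations was not tested.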

How the data were processed

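The deposited table holds 1 value per probeset and array. Per the labels, RNA of about 5 animals was pooled by mass for each array, and the submitters' processing notes name Affymetrix Expression Console. The deposited values are scores scaled by the authors to a mean of 8.0 and an SD of 2.0 on each array. Summarization, log base and any batch correction are not given in the sources used here. Arrays were grouped by the diet, strain and batch in the labels, and pairing comes from the strain names.

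The scores were used as deposited. Diets were compared with limma 3.58.1 in R 4.3.3 over all 79 arrays with batch as a term, strains and parents over the 74 arrays of 37 paired strains with diet and batch, and covariation with the score of a gene as covariate, always across all probesets with Benjamini-Hochberg adjustment at 0.05. Arrays of a strain were treated as independent except where strain was a block. Correlations used 100000 permutations, or all orders for 8 strains, two-sided. Scripts were tested on simulated data. The number of arrays limits the precision.

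The genes, lists and tests were chosen with earlier results of these data known. Named were all 9 genes, up to 3 called genes per list and direction, the 3 genes most alike to each, and the strains at the extremes. Some peroxins are not reported here by name. Promoters are from RefSeq (GRCm38.p6). Older array symbols (Peci for Eci2, Pxmp3 for Pex2, Pex11c for Pex11g, Dci for Eci1, Emr1 for Adgre1) were matched through RefSeq synonyms. Serpina1a of the liver markers was not matched. Alternatives were other subsets, scalings, covariates, limma-trend and the methods' t-test.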

Additional observations from a re-analysis of the deposited data

How the results depend on the processing

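Of the alternatives for the 9 diet differences, 106 values kept direction and side of the threshold. The count of 3 called genes became 4 with the replicate block of strains, in paired strains alone and after median centring, where Abcd2 was added, and 2 without the call of Hsd17b4 (quantile normalization, the adipocyte covariate, each batch alone). The block changed no other diet call of the 9 genes. Over all 35556 probesets, 13551 were called in the main fit. The number was 14441 with the block, 12756 in paired strains alone, 13957 after median centring and 13288 after quantile normalization. It was 10849 with the adipocyte covariate, 4491 in batch 1 alone and 8691 in batch 2 alone. The direction turned for Ehhadh in batch 1 alone (0.013) and after median centring (0.016), for Pecr after median centring (0.0047) and for Acaa1a with the adipocyte covariate (0.013), all uncalled, and for the uncalled parental difference of Crot after quantile normalization (-0.0045). Called genes numbered 6 for the other lipid enzymes and 1 for the regulators in batch 1 alone. For the peroxins they numbered 2 in batch 1 alone, 5 in batch 2 alone, 7 after quantile normalization and 7 with the adipocyte covariate, against 11 in the main fit. The calls over all probesets in these settings are given above. The methods' t-test gave 3 of the 9 genes after Benjamini-Hochberg (13650 of 35556 probesets) and 4 at its unadjusted threshold (16450 probesets). Fewer arrays entered each batch; the cause was otherwise not tested. Cross-diet correlations with an unadjusted permutation p below 0.05 fell from 6 to 2 among 17 strains with each array of batch 2 and to 1 among 8 split between batches (exact test), where r of Ehhadh was -0.29 and of Abcd3 -0.22. Among 12 strains with each array of batch 1, Abcd2, Acaa1a, Crot, Pex11a and Pecr passed this threshold. The share of all probesets that passed it was not computed. Called pairs numbered 2 in CD alone, 0 in batch 1 alone and 4 with strain as a replicate block, an alternative added, like the muscle covariate, after the data were seen. From the 10th to the 90th percentile the median strain range was 0.414 units in CD and 0.456 in HFD. Each gene had 1 probeset, so the planned comparison with other probesets gave no value.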
